A study of Mus musculus with 6 samples.

Results

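The tumor necrosis factor (TNF) ligand genes and the TNF receptor genes were examined by RNA-Seq in epididymal fat from mice under ND or HFD. The members were the protein-coding genes whose symbol starts with Tnfsf or Tnfrsf, together with Tnf, Lta, Ltb, Ltbr, Fas, Fasl, Cd27, Cd40, Cd40lg, Cd70 and Eda2r. The rule found 43 genes, 18 ligands and 25 receptors, among the 54532 genes of the count table. It used names alone and no measured value, but was chosen with earlier results of these data known. Epididymal fat is the visceral depot beside the epididymis of male mice. The mice were male C57BL/6J animals that started a normal diet (ND, 4.5% fat) or a high fat diet (HFD, 60% fat) at 4 weeks of age and stayed on it for 16 weeks, until 20 weeks of age, and the labels give "untreatment" for every sample of both diets. Each diet had 3 libraries, named ND1 to ND3 and HFD1 to HFD3. The sources used here do not say whether a library is 1 mouse or a pool, so the p-values measure the spread between these samples.

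TNF ligands are mostly made as trimers in the cell membrane, and several are shed from it by proteases such as ADAM17. Their receptors carry cysteine-rich repeats outside the cell. Inside it, some carry a death domain that recruits FADD or TRADD and leads to caspases, and others bind TRAF adaptors that activate NF-kB and MAP kinases. TNF itself is well known in obese fat, where macrophages are a main source and where it lowers insulin signalling and lipid storage in adipocytes. Other members of the families run osteoclast formation, B cell survival, T cell costimulation and the building of lymphoid organs.

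The upstream sequences of 4 members are shown first because they set the gene that gave the families their name beside its neighbor and beside the receptors with the largest changes among those with a RefSeq entry here. Each is the 250 bases before the RefSeq transcription start in GRCm38.p6, written 5′ to 3′ on the gene's own strand, at chr17:35202008-35202257 (minus strand) for Tnf, chr17:35194257-35194506 (plus) for Ltb, chr4:145246871-145247120 (minus) for Tnfrsf1b and chr1:105780473-105780722 (plus) for Tnfrsf11a. Capitals mark matches to a TATA box in Tnf and to an NF-kB motif in Ltb.
Tnf: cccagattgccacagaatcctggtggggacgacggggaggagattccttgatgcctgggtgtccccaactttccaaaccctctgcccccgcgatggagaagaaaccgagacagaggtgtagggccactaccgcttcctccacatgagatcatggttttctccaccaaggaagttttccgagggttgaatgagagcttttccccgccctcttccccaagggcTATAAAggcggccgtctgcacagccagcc
Ltb: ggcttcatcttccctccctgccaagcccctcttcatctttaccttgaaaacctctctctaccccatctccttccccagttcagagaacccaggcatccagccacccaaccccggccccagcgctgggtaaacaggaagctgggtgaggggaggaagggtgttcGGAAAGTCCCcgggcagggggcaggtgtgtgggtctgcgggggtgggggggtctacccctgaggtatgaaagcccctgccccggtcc
Tnfrsf1b: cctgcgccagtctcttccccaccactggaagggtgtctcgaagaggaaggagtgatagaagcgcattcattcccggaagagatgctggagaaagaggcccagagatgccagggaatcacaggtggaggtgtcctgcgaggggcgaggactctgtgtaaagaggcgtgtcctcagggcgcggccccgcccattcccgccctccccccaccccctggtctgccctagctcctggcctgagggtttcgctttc
Tnfrsf11a: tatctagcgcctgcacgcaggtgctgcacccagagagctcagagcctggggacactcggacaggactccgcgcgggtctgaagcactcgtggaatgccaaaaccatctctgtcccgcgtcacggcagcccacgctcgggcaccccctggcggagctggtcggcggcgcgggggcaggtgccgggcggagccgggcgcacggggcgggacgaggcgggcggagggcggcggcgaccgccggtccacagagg
The TATAAA of Tnf lies 29 to 24 bases before the start, and the window holds 57.6% G and C. The NF-kB match of Ltb, GGAAAGTCCC as read on the gene's strand, lies 87 to 78 bases before the start. The windows of Tnfrsf1b (62.8% G and C) and Tnfrsf11a (73.6%) held no match to the motifs searched, which says only that these letters are not in these windows.

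A RefSeq window was found for 33 of the 43 members, and for 8 of the 10 members that differed between the diets. The motifs were searched on both strands over the 250 upstream bases, and no match of 1 motif overlapped that of another in the members. An NF-kB motif was found for Ltb, Tnfrsf8 and Tnfrsf9, and in 3.90% of the 32851 windows of all genes. TGANTCA, the AP-1 motif, was found for Fas, Tnfrsf8, Tnfrsf9, Tnfsf13, Tnfsf13b and Tnfsf14, and in 6.75% of all windows. TATAAA was found for Tnf, Lta, Eda2r, Tnfrsf17, Tnfrsf23, Tnfsf11 and Tnfsf18, and in 12.4% of all windows. Some members, such as Tnfrsf19, had more than 1 window and were counted when any of them held the motif, whereas the shares are per window. Among the 8 members that differed and had a window, 0 held the NF-kB or the AP-1 motif and 1, Tnf, held TATAAA.

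The count totals were 16996896 to 18859320 per library, and 3 counts, used as the floor, equal 0.150 to 0.181 CPM (counts scaled to library size with TMM factors), which covers counting error only. The defining adipocyte genes Adipoq, Plin1 and Fabp4 each had 11217 counts or more in every library. The summed CPM of 15 macrophage markers was 2173 to 2300 under ND and 7046, 5450 and 11999.5 in HFD1, HFD2 and HFD3, with no marker at 0. The summed CPM of 15 adipocyte markers was 39109 to 52400 under ND and 13158 to 35347 under HFD. Cfd alone had 13634 ± 1938 CPM under ND and 1275 ± 1175 under HFD (SD, n = 3 each), a large part of that difference. ND3 stood apart in epithelial genes (259 summed CPM against 38.2 to 38.7 in ND1 and ND2 and 29.3 to 42.8 under HFD) and in genes of motile cilia (139 against 11.7 to 19.01 in the other 5 libraries). Counts of members without ND3 are therefore given with the results.

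In levels per gene length (FPKM, as the authors deposited it), receptors made up the upper end of the families. Tnfrsf1a, the TNF receptor that most cells carry, had the highest level on both diets, 96.6 ± 10.3 FPKM under ND and 89.8 ± 4.39 under HFD (SD, n = 3 each). Ltbr, the lymphotoxin beta receptor, followed at 46.8 ± 2.59 FPKM under ND, and Fas, the death receptor for Fas ligand, at 16.3 ± 1.14. Next came Tnfrsf1b with 11.1 ± 0.632 FPKM and Tnfrsf12a with 10.9 ± 0.955, whose ND libraries overlapped. Under HFD the order changed, with Tnfrsf1b second at 41.7 ± 15.2 FPKM, level with Ltbr at 40.7 ± 2.86 within the spread of its own libraries. Tnfrsf11a moved from rank 17 to rank 8 among the 43 members. Tnfsf12, the gene of the ligand TWEAK, had the highest mean of the ligands, 7.76 ± 0.513 FPKM under ND and 23.7 ± 11.3 under HFD. Under ND its libraries overlapped with those of Tnfsf10 (TRAIL) at 6.25 ± 1.87 FPKM. Tnf reached 0.516 ± 0.134 FPKM under ND and 1.92 ± 0.639 under HFD, ranks 27 and 18. The ligand genes Tnfsf4, Tnfsf8, Tnfsf11, Tnfsf15 and Tnfsf18 were at 0.292 FPKM or less in every library.

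**Figure D1:**
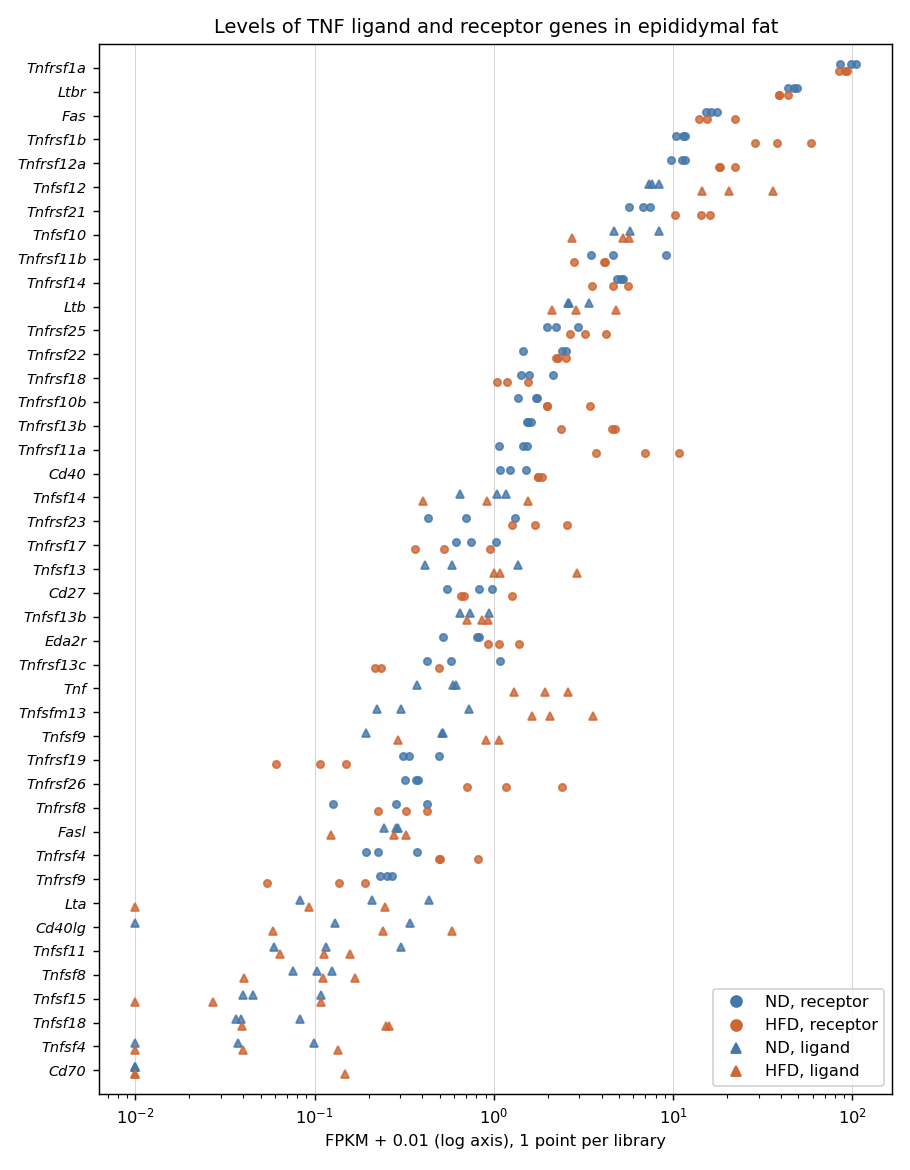
FPKM of the 43 members in each of the 6 libraries, on a log axis after adding 0.01, ordered by the mean under ND (blue, ND and orange, HFD, with circles for receptors and triangles for ligands). Receptors fill the top of the plot, Tnfrsf1a at 84.8 to 105 FPKM, and ligands its lower end.

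The raw counts of all genes were fitted with edgeR's quasi-likelihood test for HFD against ND, with the p-value adjusted over the 15751 genes tested and a threshold of 0.05. Of the 43 members, 34 had enough counts to be tested, all 25 receptors and 9 ligands. A gene low on 1 diet could enter the test through the other, so the 34 are not a sample of all members. Of the 34, 9 were higher and 1 was lower under HFD. That is 29.4% of those tested, against a background of 15.9% of all genes tested, with 26.5% higher (background 9.85%) and 2.94% lower (background 6.04%). The median log2 fold change was 0.38 over the 34 members and 0.01 over all genes tested. Of the 34 values 24 were positive, and of the 15751 over all genes tested 7962 were. The libraries of the diets did not overlap in 15 of the 34 members (44.1%), which is near the background of 40.9%. HFD lay above ND in 13 of them (background 21.7% of genes) and below it in 2 (background 19.1%). The members that rose were the ligand genes Tnf, Tnfsf12 and Tnfsfm13 and the receptor genes Tnfrsf1b, Tnfrsf11a, Tnfrsf12a, Tnfrsf13b, Tnfrsf21 and Tnfrsf26, and Tnfrsf19 fell. DESeq2 called the same 10 genes in the same directions, where its own background was 11.2% of genes higher and 8.81% lower. In such bulk RNA, a change in the number of cells of a type and a change in RNA per cell cannot be told apart.

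The number of members higher under HFD was 1, 2 and 4 without ND1, ND2 and ND3 in turn, and 2, 9 and 8 without HFD1, HFD2 and HFD3. No member was called lower in these 6 fits of 5 libraries, although Tnfrsf19 kept a negative log2 fold change in each. The background moved as well, with 2.08%, 2.31% and 3.78% of all genes higher without ND1, ND2 and ND3 and 2.35%, 14.5% and 8.33% without HFD1, HFD2 and HFD3. The share of genes lower was 0.956%, 1.32%, 2.46%, 0.58%, 9.65% and 4.58% in the same order. Tnfrsf1b was called in all 6 fits, Tnfrsf12a in 5, Tnfsfm13 and Tnfrsf11a in 3, Tnf, Tnfsf12, Tnfrsf13b and Tnfrsf21 in 2 and Tnfrsf26 in 1.

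**Figure D2:**
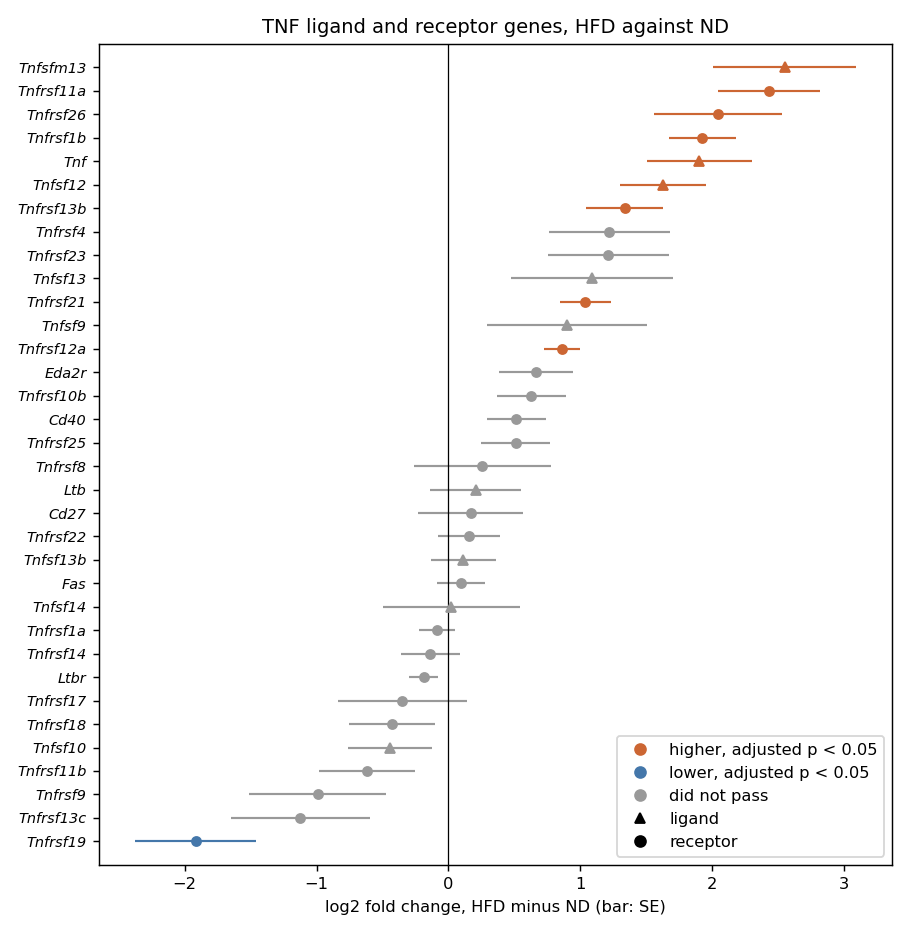
Log2 fold change of HFD minus ND with its standard error for the 34 members tested, circles for receptors and triangles for ligands. The 9 members higher under HFD (orange) lie between 0.86 and 2.55, Tnfrsf19 (blue) at -1.92, and Tnfrsf4, Tnfrsf23, Tnfsf13 and Tnfsf9 (gray) lie among the higher members without passing the test.

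Tnf, its receptors and the lymphotoxins form the first group, in which 2 of 7 genes tested rose (background 9.85%). Tnf (ENSMUSG00000024401, chromosome 17 of GRCm38 from 35199381 to 35202007) had 18, 10 and 19 counts in ND1 to ND3 and 57, 35 and 73 counts in HFD1 to HFD3. Every HFD library lay above every ND library, although the gene stayed at a low level. The mean was 0.834 ± 0.220 CPM under ND and 3.14 ± 1.05 CPM under HFD (SD, n = 3 each), a 3.77-fold difference and a log2 fold change of 1.90 (SE 0.40, adjusted p = 0.0221 by edgeR's test). Its adjusted p from edgeR was 0.0747, 0.0791, 0.0575 and 0.0875 without ND1, ND2, ND3 and HFD1, and it passed without HFD2 or HFD3. The call was thus lost without any 1 of these 4 libraries, while the log2 fold change stayed at 1.62 to 2.12 over the 6 fits. In the 4 fits that lost it, the share of all genes called higher also fell, from 9.85% to between 2.08% and 3.78%.

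Of the receptors of TNF, Tnfrsf1b passed the test and Tnfrsf1a did not. Tnfrsf1b (ENSMUSG00000028599, chromosome 4 from 145213463 to 145246870) encodes the receptor that responds best to membrane-bound TNF and has no death domain. It had 805, 732 and 791 counts under ND against 2636, 1813 and 3872 under HFD. The ND libraries were within a narrow range, and the lowest HFD library was far above them. The mean was 41.8 ± 2.04 CPM under ND and 159 ± 58.3 CPM under HFD (SD, n = 3 each). This 3.80-fold difference was a log2 fold change of 1.92 (SE 0.26, adjusted p = 0.00789 by edgeR's test), and the adjusted p was 0.00102 to 0.0451 over the 6 fits without 1 library. Tnfrsf1a, whose product carries the death domain, had 4662, 4617 and 4403 counts under ND against 4306, 3629 and 4185 under HFD. In CPM the diets overlapped, and the log2 fold change was -0.09 (SE 0.14, adjusted p = 0.680 by edgeR's test). Within each library, the FPKM of Tnfrsf1b over that of Tnfrsf1a was 0.117, 0.108 and 0.122 under ND and 0.415, 0.339 and 0.628 under HFD. Tnfrsf1a was thus the more abundant receptor transcript in all 6 libraries, by a smaller margin under HFD.

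The lymphotoxin genes lie beside Tnf on chromosome 17, Ltb 3060 bases and Lta 1157 bases away, and neither was called. Ltb, which anchors lymphotoxin heterotrimers in the membrane, had 71, 87 and 79 counts under ND against 133, 72 and 55 under HFD. The HFD libraries lay on both sides of the ND libraries, and the log2 fold change was 0.21 (SE 0.35, adjusted p = 0.714 by edgeR's test). Lta, the secreted lymphotoxin, had 5, 10 and 2 counts under ND against 6, 0 and 2 under HFD, too few to test. Ltbr, the receptor of these heterotrimers, had a log2 fold change of -0.19 (SE 0.11, adjusted p = 0.279 by edgeR's test). The member nearest to Ltbr on chromosome 6 is Tnfrsf1a, 35476 bases away, which did not pass the test either. Tnfrsf8 lies 20266 bases from Tnfrsf1b on chromosome 4 and, with a log2 fold change of 0.26 (SE 0.52), did not pass the test that Tnfrsf1b passed. Tnfsf14 (LIGHT), a further ligand of Ltbr, had a log2 fold change of 0.02, and its other receptor Tnfrsf14 one of -0.14. Neither passed the test.

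**Figure D3:**
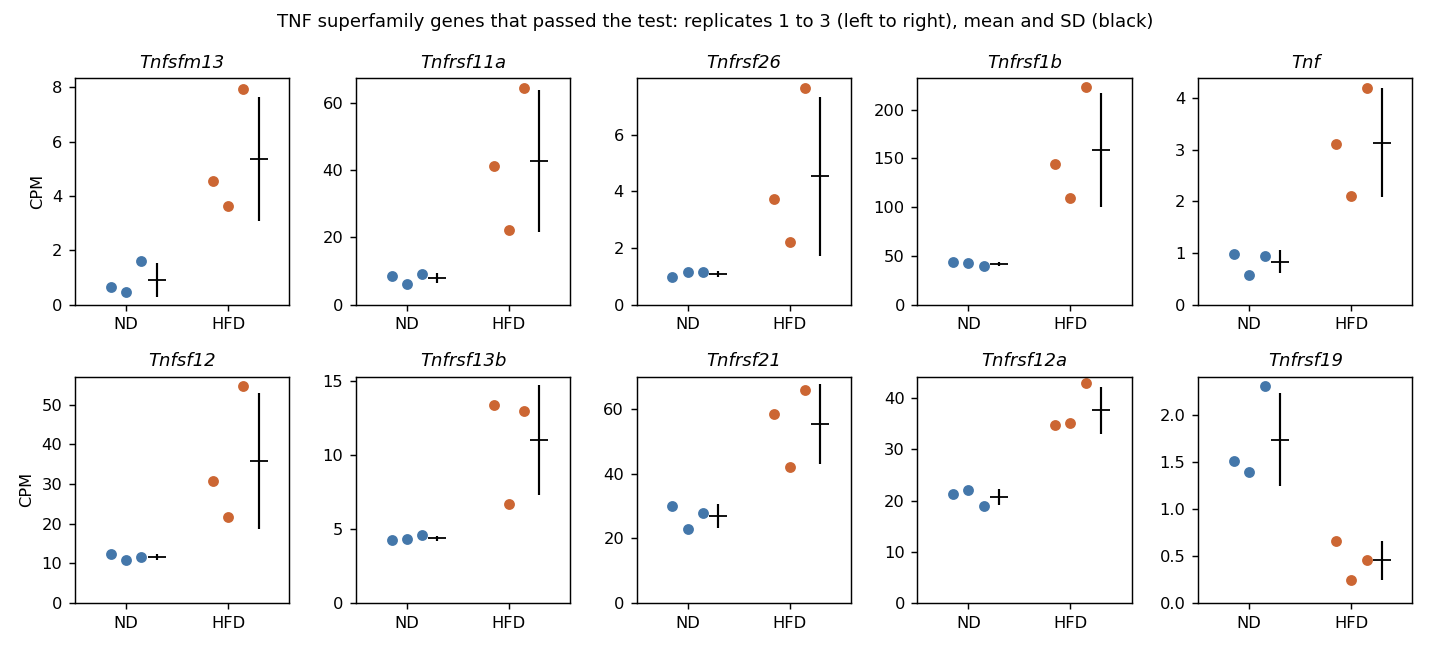
CPM of the 10 members that differed between the diets, 1 point per library with replicates 1 to 3 from left to right in each diet, and the mean with its SD in black. HFD lies above ND without overlap in 9 genes and below it in Tnfrsf19, and HFD3 is the highest library in 8 of the 9.

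The RANK axis controls osteoclasts and also acts in other cells of the monocyte line. Its receptor gene Tnfrsf11a (RANK, chromosome 1 from 105780718 to 105847981) had 157, 107 and 181 counts under ND against 758, 368 and 1120 under HFD. The diets did not overlap, and the HFD libraries differed from each other by more than the ND libraries did. The mean was 7.91 ± 1.503 CPM under ND and 42.7 ± 21.2 under HFD (SD, n = 3 each), a 5.40-fold difference and a log2 fold change of 2.43 (SE 0.38, adjusted p = 0.0112 by edgeR's test). The adjusted p from edgeR was 0.0521 and 0.0559 without ND1 and ND2 and stood just above the threshold without HFD1. The ligand gene Tnfsf11 (RANKL) had 2, 4 and 13 counts under ND against 6, 2 and 4 under HFD, and was not tested. The soluble decoy receptor gene Tnfrsf11b (osteoprotegerin) had 235, 432 and 195 counts under ND against 213, 190 and 136 under HFD, with ND2 apart from the other libraries. Its log2 fold change was -0.62 (SE 0.36, adjusted p = 0.276 by edgeR's test). The FPKM ratio of Tnfrsf11a to Tnfrsf11b was 0.315, 0.117 and 0.437 under ND and 1.68, 0.912 and 3.88 under HFD, so receptor transcripts outnumbered those of the decoy per length in HFD1 and HFD3.

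TWEAK is a ligand that acts on progenitor and stromal cells through Fn14. This axis holds only 2 genes, and both rose (background 9.85%). Tnfsf12, the ligand (chromosome 11 from 69686250 to 69695849), had 229, 187 and 231 counts under ND against 564, 361 and 953 under HFD. HFD3 was the highest library and HFD2 the lowest of the HFD libraries, still above ND. Exons of Tnfsf12 share 731 bases with those of Tnfsfm13 on the same strand, so the counts of both genes are uncertain. The mean was 11.6 ± 0.759 CPM under ND and 35.8 ± 17.1 under HFD (SD, n = 3 each). This 3.09-fold difference was 1.63 on the log2 scale (SE 0.32, adjusted p = 0.0201 by edgeR's test). The adjusted p from edgeR was 0.0726, 0.0805, 0.0658 and 0.0645 without ND1, ND2, ND3 and HFD1. Tnfrsf12a, the gene of Fn14, a small receptor induced in injured tissue (chromosome 17 from 23675445 to 23677468), had 394, 379 and 377 counts under ND against 637, 583 and 746 under HFD. Both diets were tight for this gene, and its change was the smallest among the members that rose. The mean was 20.7 ± 1.65 CPM under ND and 37.6 ± 4.62 under HFD (SD, n = 3 each). Its log2 fold change was 0.86 (SE 0.14, adjusted p = 0.0105 by edgeR's test, and 0.0521 without ND1). The FPKM of the ligand over that of the receptor was 0.741, 0.629 and 0.781 under ND and 1.13, 0.790 and 1.63 under HFD, with HFD2 close to the ND libraries.

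BAFF and APRIL keep B cells and plasma cells alive. In this group of 6 genes, 2 rose (background 9.85%), and the counts of 1 of them, Tnfsfm13, are uncertain. The receptor gene Tnfrsf13b (TACI, chromosome 11 from 61126755 to 61149372) had 78, 74 and 91 counts under ND against 244, 111 and 225 under HFD. The 3 ND libraries were alike, and HFD2 lay between them and the other HFD libraries. The log2 fold change was 1.34 (SE 0.29, adjusted p = 0.0248 by edgeR's test), and the adjusted p was 0.0926, 0.0881, 0.0720 and 0.110 without ND1, ND2, ND3 and HFD1. The receptor genes Tnfrsf13c (BAFF receptor) and Tnfrsf17 (BCMA) did not pass, with log2 fold changes of -1.12 (SE 0.53) and -0.35 (SE 0.49). Of 10 B cell and plasma cell markers 1 was higher, a share near the background of 9.85%. It was Sdc1, which other cells also express, and the summed CPM of the list was 50.2 to 75.2 under ND and 105 to 242 under HFD. Sdc1 alone had 28.5 ± 8.64 CPM under ND and 127 ± 72.2 under HFD (SD, n = 3 each) and made up most of that difference, and the other 9 markers did not pass the test.

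Among the ligands of this axis, Tnfsf13b (BAFF) had a log2 fold change of 0.11 (SE 0.25) and Tnfsf13 (APRIL) one of 1.09 (SE 0.61, adjusted p = 0.256 by edgeR's test). Tnfsfm13, a gene that joins parts of Tnfsf12 and Tnfsf13 in 1 transcript, had 12, 8 and 32 counts under ND against 83, 60 and 138 under HFD. ND3 was the highest ND library and lay below every HFD library, and the gene entered the test through HFD. The log2 fold change was 2.55 (SE 0.54, adjusted p = 0.0244 by edgeR's test), the largest of the 34 members, and the adjusted p was 0.0924, 0.0790 and 0.0818 without ND1, ND2 and HFD1. Its exons share 731 bases with Tnfsf12 and 983 bases with Tnfsf13 on the same strand of chromosome 11 and 253 bases with the antisense gene Tnfsf13os, and the library kit did not mark strand. Reads in the shared exons cannot be told apart, so the values of Tnfsfm13 and Tnfsf13 are uncertain.

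Death domain receptors start cell death or inflammation according to the adaptors they bind. The 5 members counted here were Tnfrsf1a, Fas, Tnfrsf21, Tnfrsf10b and Tnfrsf25, without genes outside the rule such as Ngfr. Of these 5, 1 rose, a count near that given by the background of 9.85%. Tnfrsf21 (death receptor 6, chromosome 17 from 43016555 to 43089189) had 558, 396 and 557 counts under ND against 1067, 696 and 1146 under HFD. The libraries of the diets did not overlap, and the gap between ND1 and HFD2 was narrow beside the spread under HFD. The log2 fold change was 1.04 (SE 0.19, adjusted p = 0.0165 by edgeR's test), and the adjusted p was 0.0554, 0.0670, 0.0563 and 0.0760 without ND1, ND2, ND3 and HFD1. Fas had a log2 fold change of 0.09 (SE 0.18, adjusted p = 0.754 by edgeR's test). Its ligand gene Fasl had 10, 9 and 9 counts under ND against 4, 10 and 9 under HFD and was not tested. Tnfrsf10b, the mouse TRAIL receptor with a death domain, had 18.6 CPM in HFD1 and 10.7 CPM in each of HFD2 and HFD3 against 7.29 to 9.30 CPM under ND. These values did not overlap, and the log2 fold change of 0.63 (SE 0.26) did not pass (adjusted p = 0.139 by edgeR's test). Its ligand gene Tnfsf10 (TRAIL) had a log2 fold change of -0.44 (SE 0.32, adjusted p = 0.365).

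Tnfrsf26, Tnfrsf22 and Tnfrsf23 lie in this order on chromosome 7, with gaps of 6083 and 16147 bases, and lack a death domain. Tnfrsf22 and Tnfrsf23 encode decoy receptors for TRAIL. Tnfrsf26 (143607659 to 143628722) had 18, 20 and 23 counts under ND against 68, 37 and 133 under HFD. The ND libraries were nearly equal and HFD2 was the closest HFD library to them. The log2 fold change was 2.05 (SE 0.49, adjusted p = 0.0321 by edgeR's test), and the adjusted p was between 0.0538 and 0.116 in each fit without 1 library except that without HFD2 (0.00816). It was 0.0577 by limma-voom. Tnfrsf23 had a log2 fold change of 1.21 (SE 0.46) and did not pass (adjusted p = 0.114 by edgeR's test), and Tnfrsf22 one of 0.16 (SE 0.23). The transcripts of Tnfrsf22 and Tnfrsf23 are 91.7% identical over 1451 bases, and Tnfrsf23 and Tnfrsf26 overlap the antisense gene E230032D23Rik by 164 and 107 bases, so their counts are uncertain.

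Tnfrsf19 (TROY, chromosome 14 from 60963875 to 61046490), a receptor known from progenitor cells, was the member that fell. It had 28, 24 and 46 counts under ND against 12, 4 and 8 under HFD. The diets did not overlap, with HFD2 near the floor of 3 counts, and the gene entered the test through ND. The mean was 1.73 ± 0.493 CPM under ND and 0.452 ± 0.208 under HFD (SD, n = 3 each). Its log2 fold change was -1.92 (SE 0.46, adjusted p = 0.0323 by edgeR's test). The adjusted p from edgeR rose to 0.0905, 0.0781, 0.0840, 0.0759, 0.0507 and 0.0673 without ND1, ND2, ND3, HFD1, HFD2 and HFD3, so the call was lost in each of these fits. Eda2r, the receptor of an ectodysplasin form, had 4.75, 2.96 and 4.70 CPM under ND and 6.23, 8.01 and 5.41 under HFD. These values did not overlap either, and the log2 fold change of 0.66 (SE 0.28) did not pass (adjusted p = 0.146 by edgeR's test).

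The pairs of ligands and receptors that costimulate lymphocytes showed no gene past the threshold. Of 14 genes in 7 pairs, 8 were tested, and 0 passed by edgeR's test (background 15.9%) or by DESeq2, with 1 at an unadjusted p under 0.05. That gene was Tnfrsf4 (OX40), a receptor of activated T cells, with 9, 5 and 5 counts under ND against 12, 11 and 19 under HFD and a log2 fold change of 1.22 (SE 0.46, adjusted p = 0.111 by edgeR's test). Cd40, the receptor through which T cells activate B cells and macrophages, had 4.10, 4.99 and 3.65 CPM under ND and 6.28, 5.96 and 5.93 under HFD. The diets did not overlap for Cd40, and the log2 fold change of 0.51 (SE 0.22) did not pass (adjusted p = 0.151 by edgeR's test). Tnfrsf9 (CD137) lay below ND in every HFD library, with 0.648, 0.696 and 0.600 CPM under ND and 0.492, 0.120 and 0.346 under HFD, and did not pass (adjusted p = 0.224). The other tested genes of these pairs, Tnfsf9, Tnfrsf25, Tnfrsf8, Cd27 and Tnfrsf18, overlapped between the diets, with log2 fold changes from -0.43 (Tnfrsf18) to 0.90 (Tnfsf9). Exons of Tnfrsf18 and Tnfsf9 overlap the antisense genes Gm16008 and Gm11110 by 414 and 192 bases, so the counts of both are uncertain. T cell markers had 21.5 to 29.2 summed CPM under ND and 26.9 to 37.3 under HFD. By edgeR's test 0 of 12 passed, against a background of 15.9% (1 at an unadjusted p under 0.05 and 0 by DESeq2).

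The other 6 genes of these pairs are ligands that were near the floor and were not tested. Cd40lg had 0, 7 and 3 counts under ND against 13, 1 and 5 under HFD. Tnfsf18, the ligand of Tnfrsf18 (GITR), had 1, 1 and 3 counts under ND against 9, 1 and 9 under HFD. Tnfsf8, the ligand of Tnfrsf8 (CD30), had 8, 6 and 5 under ND and 7, 10 and 2 under HFD. These ligands are made mainly by activated lymphocytes or antigen-presenting cells, and a difference between the diets was not detectable at this depth. Tnfsf15 had 6, 2 and 2 counts under ND against 6, 0 and 1 under HFD. Tnfsf4, the ligand of OX40, had 3, 0 and 1 under ND and 1, 0 and 4 under HFD. Cd70, the ligand of Cd27, had 0 counts in 5 libraries and 2 in HFD3, under the floor of 3 counts in each.

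The members that rose were set beside the macrophage markers, of which 11 of 15 were higher under HFD (73.3%, background 9.85%). Lyz2 alone made up 34.7% to 41.3% of that summed CPM, and several of these markers are also found in dendritic cells or neutrophils. In the HFD libraries, the marker sum was lowest in HFD2 and highest in HFD3, and 7 of the 9 members that rose had the same order, as did 73.0% of all genes called higher. Of the 24 tested members that did not pass, 5 had that order. The 2 members that rose with another order were Tnfrsf12a and Tnfrsf13b. Adipocyte markers moved the other way, with 5 of 15 lower by edgeR's test (33.3%, background 6.04%), Cfd among them. DESeq2 gave 8 lower (background 8.81%), and 14 had a negative log2 fold change. The abundant markers Fabp4 and Adipoq did not pass, with log2 fold changes of -0.24 and -0.52. Dendritic cell markers had 2 of 7 higher (Itgax and Ccr7, background 9.85%). Of the other 5, 2 lay below ND in every HFD library (background 19.1%). From these 2, Zbtb46 was lower at an unadjusted p under 0.05 (log2 fold change -0.43, adjusted p = 0.0949 by edgeR's test). Neutrophil markers had 1 of 4 tested higher (background 9.85%) and 1 lower (background 6.04%). In edgeR's test, the threshold was passed by 0 of 10 endothelial markers (2 at an unadjusted p under 0.05 and 1 by DESeq2, lower in each case). It was also passed by 0 of 9 fibroblast markers (0 unadjusted and 0 by DESeq2), where the background in either direction was 15.9%.

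Expressed per 1000 CPM of macrophage markers, Tnfrsf1b was at 18.9, 19.5 and 18.2 under ND and 20.4, 20.04 and 18.6 under HFD. The change of Tnfrsf1b was thus about as large as that of the marker sum, and the diets overlapped in this ratio. Tnf had 0.423, 0.267 and 0.436 per 1000 under ND and 0.442, 0.387 and 0.350 under HFD, and Tnfrsf11a 3.69, 2.86 and 4.16 under ND and 5.88, 4.07 and 5.38 under HFD. Both overlapped between the diets as well, Tnfrsf11a through ND3 alone. Tnfsfm13 had 0.282, 0.214 and 0.735 under ND and 0.644, 0.663 and 0.662 under HFD, and it too overlapped through ND3 alone. In the same ratio Tnfrsf12a went from 9.25, 10.1 and 8.66 to 4.94, 6.44 and 3.58, Tnfrsf21 from 13.1, 10.6 and 12.8 to 8.27, 7.69 and 5.50, and Tnfsf12 from 5.38, 4.99 and 5.30 to 4.37, 3.99 and 4.57. Tnfrsf12a, Tnfrsf21 and Tnfsf12 rose less than the marker sum and did not overlap. In 0 of the 9 members did the ratio of every HFD library lie above all ND libraries, which for Tnfsfm13 and Tnfrsf11a rested on ND3. With Lyz2 left out of the sum, a setting chosen after seeing the data, 4 members lay below ND and 0 above. Which cells carried these transcripts was not tested.

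**Figure D4:**
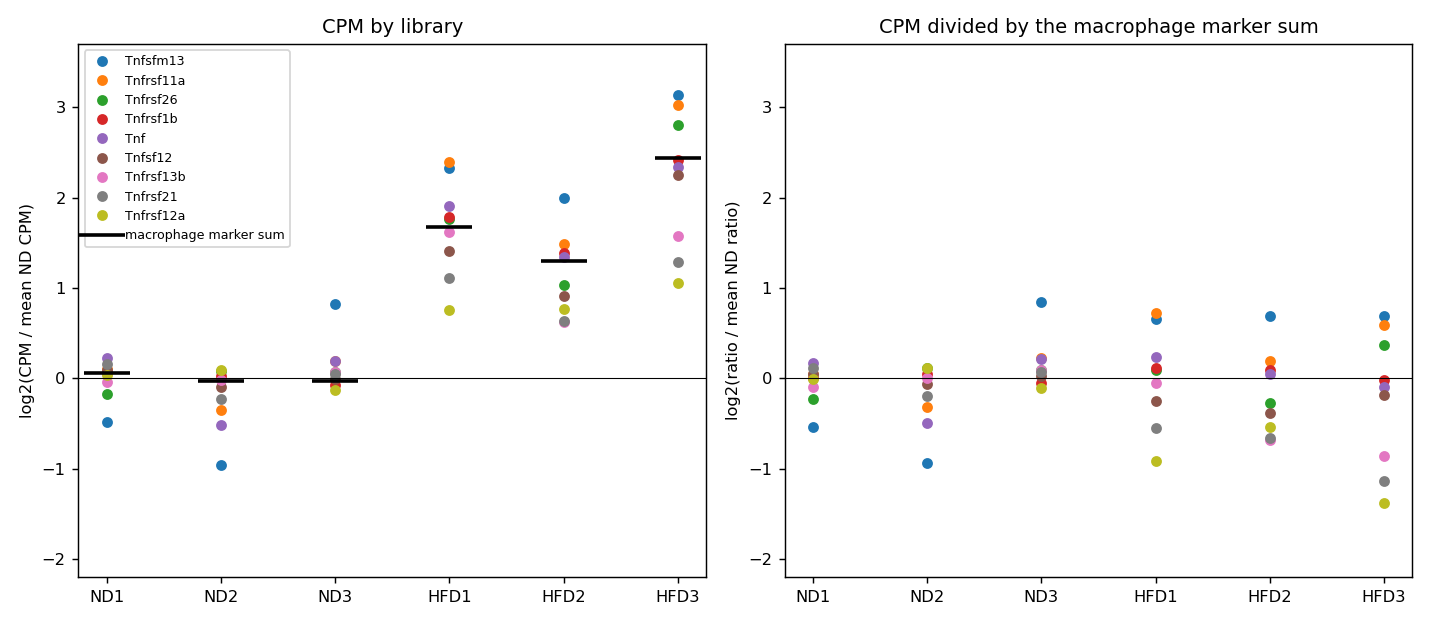
The 9 members higher under HFD in each library as log2 of CPM over the mean of ND (left), with the summed macrophage markers as black bars, and as log2 of the ratio to that sum over its mean under ND (right). On the left, 7 of the 9 members have the order of the bars among the HFD libraries, and Tnfrsf12a and Tnfrsf13b do not. On the right Tnfrsf1b and Tnf lie near 0 while Tnfrsf12a and Tnfrsf21 lie below 0 under HFD.

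Genes that act inside the cell for these receptors were taken from a list of 47, all of which were tested. The list was written with earlier results of these data known, so its share beside the background is no independent evidence. Of them, 11 rose and 1 fell, 25.5% in all (background 15.9%), with a median log2 fold change of 0.25 (0.01 over all genes). Rel, an NF-kB subunit of immune cells, had 165, 163 and 203 counts under ND against 400, 226 and 423 under HFD (log2 fold change 1.07, SE 0.23, adjusted p = 0.0240 by edgeR's test). The adaptor genes Traf5 (1.02), Traf1 (0.79) and Traf3 (0.72) rose, as did Tnip2 (0.93) and Tnip1 (0.64), which encode partners of the NF-kB inhibitor TNFAIP3. The other 5 genes that rose had smaller changes. Traf4 fell, with 654, 518 and 604 counts under ND against 215, 180 and 219 under HFD, and both diets were tight (log2 fold change -1.44, SE 0.13, adjusted p = 0.00344 by edgeR's test). Traf4 is known more from epithelia and development than from TNF signalling. By the same test 0, 0 and 1 genes of the list were higher without ND1, ND2 and ND3 and 0, 17 and 5 without HFD1, HFD2 and HFD3.

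Textbook genes that TNF induces through NF-kB were counted in a list of 35, of which 29 were tested. This list too was written with earlier results of these data known, so its share beside the background is no independent evidence. Of these, 13 rose and 0 fell by edgeR's test, 44.8% (background 15.9%), with a median log2 fold change of 0.62, while 1 was lower at an unadjusted p under 0.05 and DESeq2 gave 15 higher and 0 lower. The chemokine gene Cxcl2 rose most, with 5, 6 and 3 counts under ND against 80, 40 and 92 under HFD (log2 fold change 3.96, SE 0.49, adjusted p = 0.00651 by edgeR's test), and it entered the test through HFD. Mmp3, a matrix protease, had a log2 fold change of 3.22, Plaur, the urokinase receptor, 2.65, the chemokine gene Cxcl1 2.46, Tnfaip2 2.44 and Ccl2, which attracts monocytes, 1.95. Macrophages express several of these genes, and their markers were also higher under HFD, a part in the result that was not tested. Il6 had 6, 1 and 2 counts under ND against 4, 5 and 12 under HFD and was not tested, and Ccl20 and Csf3 had 0 counts in all 6 libraries. The count of higher genes was 4, 2 and 3 without ND1, ND2 and ND3 and 2, 16 and 9 without HFD1, HFD2 and HFD3.

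**Figure D5:**
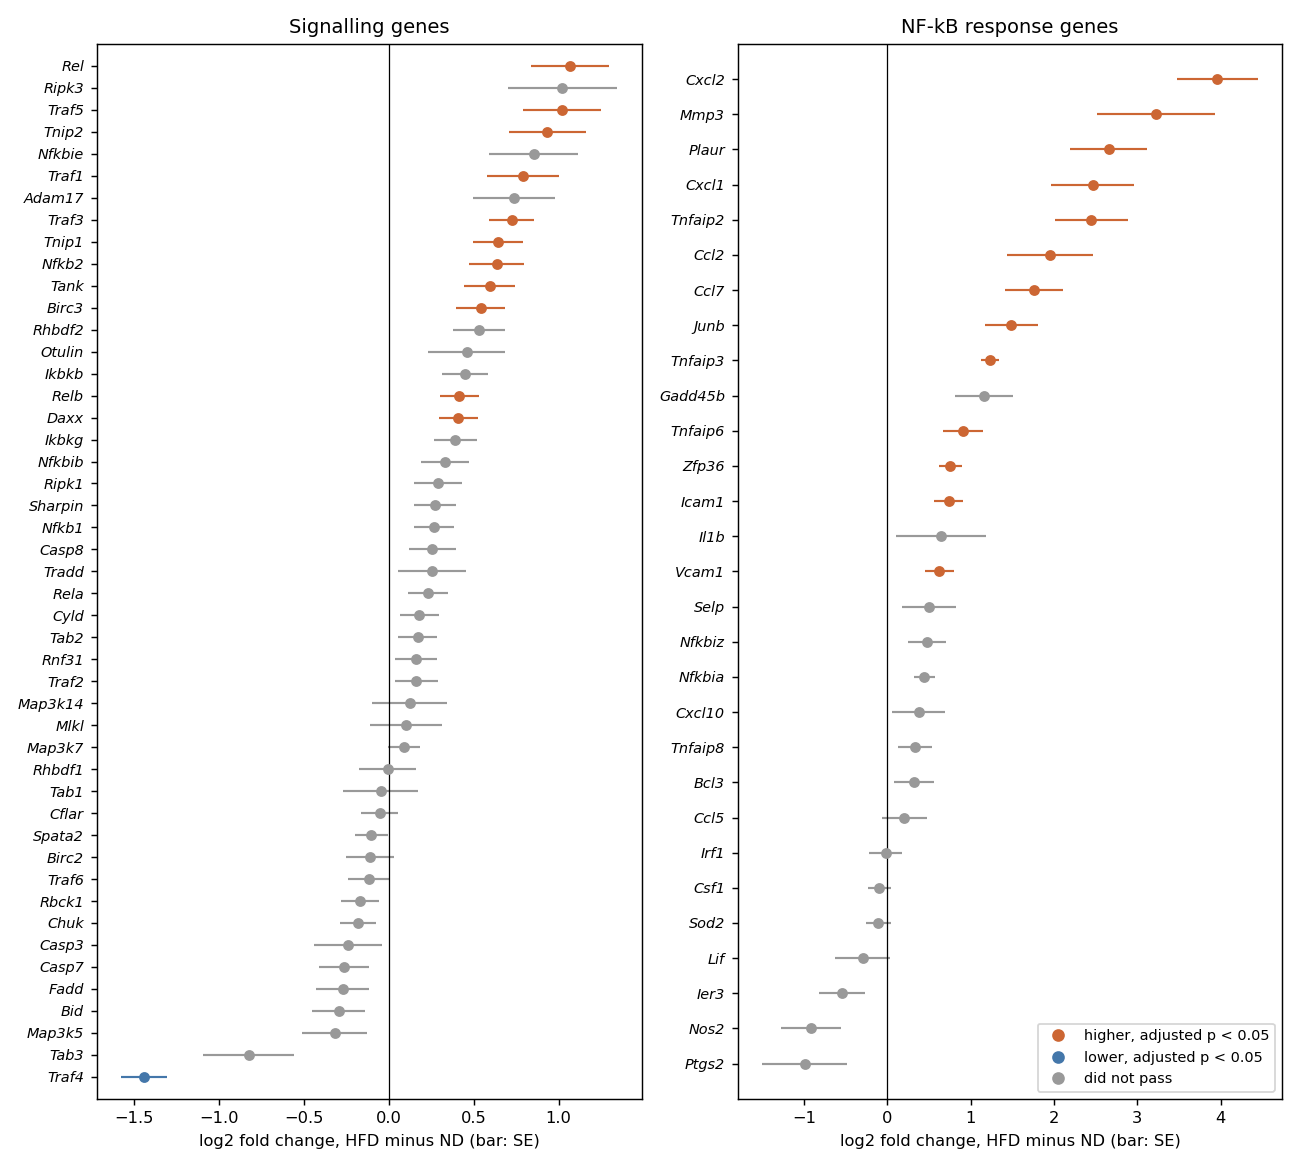
Log2 fold change of HFD minus ND with its standard error for the 47 signalling genes (left) and the 29 tested NF-kB response genes (right). Traf4 is the single gene called lower, at -1.44, and the 13 response genes called higher reach from 0.62 to 3.96.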

How the data were processed

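RNA of epididymal fat was isolated with TRIzol, and libraries were made with the NEBNext Ultra RNA kit, which does not mark strand. Per the paper's methods, TopHat and Cufflinks were run on paired-end reads with GRCm38 (mm10) as the genome. The submitters' processing notes instead name HISAT2 2.0.5, featureCounts 1.5.0-p3 and the build GRCh38, which the mouse identifiers go against. The annotation release is not given in the sources used here. The authors deposited raw counts per gene and FPKM values for 6 libraries. Names and coordinates came from GENCODE M21 (GRCm38), in which 54495 of 54532 identifiers were found.

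The counts were tested with edgeR 4.0.16 (R 4.3.3) by the quasi-likelihood F-test with TMM factors, filterByExpr and robust fitting, with diet as the factor and Benjamini-Hochberg adjustment over all genes tested. The standard error was derived from the F statistic. An exact permutation test of 3 against 3 libraries cannot reach the threshold, so none was run. As alternatives the tests of DESeq2 1.42.0 and of limma-voom (limma 3.58.1) were used, counts were scaled by DESeq2's size factors or by total alone, the filter was dropped or set to at least 10 counts in 3 libraries, and further fits had a replicate block, each library left out, a log2 fold change of at least 1, and limma on log2(FPKM + 1) or log2(FPKM + 0.1) for genes with 0.5 FPKM in 3 libraries or without that filter. Methods were tested on simulated data. Replicates differed by more than sampling noise.

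All members are named, with up to 6 called genes per direction from the signalling and NF-kB response lists, all of 4 superfamily genes outside the rule, and single markers. Members and lists were chosen with earlier results of these data known. Upstream sequences came from RefSeq (GRCm38.p6).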

Additional observations from a re-analysis of the deposited data

How the results depend on the processing

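None of the 24 tested members that did not pass did so under any alternative run, and none of the 10 called members turned direction. The count of 9 higher members stayed at 8 or 9 except on unfiltered FPKM (2) and without single libraries (1 to 9). The 1 lower member, Tnfrsf19, was under the FPKM filter and so not tested on filtered FPKM with either pseudocount (0), and its call was lost on unfiltered FPKM (0, adjusted p = 0.0787 by limma), with the replicate block (0, adjusted p = 0.0591 by edgeR) and without any single library (0 to 0). Tnfrsf26 was lost with limma-voom (adjusted p = 0.0577), with the replicate block (adjusted p = 0.0612 by edgeR) and on FPKM. Signalling genes higher, 11, became 7 with limma-voom, 5 with library size only, 6 without a filter, 5 with the replicate block, 6 on FPKM with either pseudocount, 0 without the FPKM filter, 2 with a log2 fold change of at least 1 and 0 to 17 without single libraries, and DESeq2 gave 16. Signalling genes lower, 1, became 2 with DESeq2 and with the replicate block, and 1 to 2 without single libraries. NF-kB response genes higher, 13, became 8 without a filter, 2 on unfiltered FPKM and 2 to 16 without single libraries, and those lower, 0, became 0 to 1. Where fewer samples or more genes were tested, that is the construction of the alternative, and the other causes were not tested.

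The genes that turned direction, 8 members beside Eda and Relt from outside the rule, were not called. Tnfsf14 (0.02 on the log2 scale) was at -0.13 with limma-voom, -0.11 with the replicate block, -0.031 on FPKM with a pseudocount of 1, filtered or not, and -0.12 with 0.1. Without single libraries it ranged from -0.56 to 0.39, Cd27 from -0.24 to 0.36, Tnfrsf8 from -0.14 to 0.71, Fas from -0.12 to 0.21, Ltb from -0.22 to 0.43, Tnfrsf14 from -0.33 to 0.0021, Tnfrsf22 from -0.083 to 0.29, Tnfsf13b from -0.0034 to 0.25, Eda from -0.39 to 0.069 and Relt from -0.42 to 0.037. No sign that the same number marks paired libraries was seen. Deviations of same-numbered libraries correlated at -0.09, -0.06 and -0.01, and no library was most like its own number. With 3 libraries per diet this cannot exclude pairing. The block gave 1886 calls over all genes against 2504, but a block by itself uses degrees of freedom, so this count cannot decide the question. Without Lyz2 in the macrophage sum, a setting chosen after seeing the data, the ratio of Tnfrsf1b moved from 0.06 to -0.02 on the log2 scale of HFD over ND. Depth limits the 9 untested ligands, which had at most 13 counts in any library.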

Other observations

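Genes of the same superfamilies whose names fall outside the rule were examined as well. Ngfr, the low-affinity neurotrophin receptor, had 36, 23 and 52 counts in ND1 to ND3 and 6, 10 and 11 counts in HFD1 to HFD3. It entered the test through ND. The diets did not overlap, and the gene was lower under HFD with a log2 fold change of -1.90 (SE 0.43, adjusted p = 0.0275 by edgeR's quasi-likelihood test). The adjusted p from edgeR was 0.0918, 0.0582, 0.0745 and 0.110 without ND1, ND2, ND3 and HFD1 and 0.0601 with the replicate block, and that from limma on unfiltered FPKM was 0.0828, so the call was lost in each of these fits. Relt, an orphan receptor, had a log2 fold change of -0.18 (SE 0.29), and Eda, the gene of ectodysplasin, one of -0.12 (SE 0.25). Neither passed the test. Edar, the ectodysplasin receptor, had 4, 0 and 7 counts under ND against 6, 0 and 0 under HFD and was not tested.

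Genes of the protease complex that cuts TNF from the membrane belong to the signalling list. Adam17, the sheddase of TNF, had 1152, 1171 and 1145 counts under ND against 1783, 1198 and 2484 under HFD, with HFD2 close to the ND libraries, and did not pass (log2 fold change 0.74, SE 0.24, adjusted p = 0.0778 by edgeR's test). Rhbdf2, which brings Adam17 to the cell surface in immune cells, had 434, 405 and 432 counts under ND against 583, 461 and 684 under HFD (log2 fold change 0.53, SE 0.15, adjusted p = 0.0540 by edgeR's test). Tnfaip3, which ends NF-kB signalling and is not in the signalling list, was higher under HFD. It was nearly equal among libraries of a diet, with 286, 268 and 302 counts under ND against 680, 589 and 619 under HFD (log2 fold change 1.23, SE 0.11, adjusted p = 0.00338 by edgeR's test). These 3 genes were named after their values were seen.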
